A study of Mus musculus with 2 samples.

Results

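The genes examined here were 10 growth arrest genes, namely the INK4 inhibitors Cdkn2a, Cdkn2b, Cdkn2c and Cdkn2d, the CIP/KIP inhibitors Cdkn1a, Cdkn1b and Cdkn1c, and Trp53, Mdm2 and Rb1. They were taken by symbol from the 31253 genes to which transcript rows could be assigned, and all 10 were in the table. The list was chosen by gene family and by the difference in FPKM between these same libraries, which was known, so the levels and ratios below describe the libraries and were not tested. One library came from cultured neural retinal progenitor cells of the mouse (mNRPCs), at passage 24, which the study grew from neural retina of adult mice in a defined medium that held bFGF and the GSK3 inhibitor CHIR99021. The other came from retina tissue, and both labels give the strain C57BL/6, with no allele or transgene named. Each group held 1 library, so no difference has a replicate check and no p-value was calculated. The mNRPCs are a culture that was passaged for a long time, whereas the retina is a tissue of mostly postmitotic neurons and glia. In such bulk samples, fewer cells of a type and less RNA per cell cannot be told apart.

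INK4 proteins bind the cyclin D kinases CDK4 and CDK6 and keep them from phosphorylating the retinoblastoma protein, the product of Rb1, which holds back E2F transcription factors in its unphosphorylated form. CIP/KIP proteins bind cyclin-kinase complexes more broadly. Cdkn2a encodes, besides the INK4 protein p16INK4a, the unrelated protein p19ARF, which is read in another frame and binds the p53 ubiquitin ligase MDM2, and p53 in turn induces both Cdkn1a and Mdm2. In the developing retina, p27 (Cdkn1b) and p57 (Cdkn1c) are known for their roles when progenitors leave the cell cycle.

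The 2 products of Cdkn2a can be told apart by transcript because each has its own start and first exon. The sequences before these starts, and before the start of the neighbouring gene Cdkn2b, are shown because Cdkn2a and Cdkn2b had the largest ratios of the 10 genes. They are the 250 bases upstream, from RefSeq on GRCm38.p6, all on the minus strand of chromosome 4, at chr4:89294620-89294869 for p19ARF, chr4:89282193-89282442 for p16INK4a and chr4:89311033-89311282 for Cdkn2b. Capitals mark the GC box GGGCGG and the E2F letters TTTCCCGC, TTTCGCGC or TTTGGCGC, searched on both strands. GENCODE M21 places the p19ARF start slightly further upstream, within the first window.
Cdkn2a, p19ARF start: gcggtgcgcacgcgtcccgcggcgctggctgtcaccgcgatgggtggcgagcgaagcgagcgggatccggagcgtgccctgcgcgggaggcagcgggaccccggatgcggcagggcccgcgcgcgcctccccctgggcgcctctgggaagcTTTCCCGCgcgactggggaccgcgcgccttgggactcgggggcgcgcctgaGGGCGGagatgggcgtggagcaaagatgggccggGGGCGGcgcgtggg
Cdkn2a, p16INK4a start: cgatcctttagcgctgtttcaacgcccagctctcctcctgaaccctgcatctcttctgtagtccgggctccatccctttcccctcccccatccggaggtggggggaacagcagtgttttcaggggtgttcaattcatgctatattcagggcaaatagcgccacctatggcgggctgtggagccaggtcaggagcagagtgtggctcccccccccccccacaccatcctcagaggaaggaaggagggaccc
Cdkn2b start: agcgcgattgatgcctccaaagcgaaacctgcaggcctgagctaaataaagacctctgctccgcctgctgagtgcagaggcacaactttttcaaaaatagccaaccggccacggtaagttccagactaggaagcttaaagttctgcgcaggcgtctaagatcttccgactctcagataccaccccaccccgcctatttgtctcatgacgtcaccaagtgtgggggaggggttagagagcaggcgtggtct

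The window of the p19ARF start held 40 CpG dinucleotides and had a GC content of 78.4%, whereas that of the p16INK4a start held 7 CpG and had a GC content of 60.0%, and that of Cdkn2b held 12 CpG at 53.6%. The median over 32851 upstream windows of this length was 6 CpG. The p19ARF window had 2 GC boxes, a motif found in 32.7% of all windows, and the E2F letters TTTCCCGC beginning 99 bases before the start. One of the E2F spellings was present in 1.53% of all windows. Neither motif was written in the p16INK4a or Cdkn2b windows. These matches describe the letters only. Of the 10 genes, 8 were in the promoter table.

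At first the 10 genes were placed among all genes. Values are FPKM, that is fragments per kilobase of transcript scaled to 1e+06 mapped fragments, and the log2 ratio sets (mNRPC FPKM + 1) over (retina FPKM + 1). A gene was compared if either library had 1 FPKM or more of it, which took in 13780 genes and all 10 members. At least 2-fold higher in mNRPCs were 5 members (Cdkn2a, Cdkn2b, Cdkn2c, Cdkn1a and Trp53), where 24.5% of all genes were, and at least 2-fold lower were 2 members (Cdkn1c and Rb1), where 30% of all genes were. Either way these were 7 of 10, beside 54.4% of all genes. At 4-fold, 4 members were higher (11.2% of all genes) and 0 were lower (14.1% of all genes). The members were picked with this contrast known, and nothing is read from these shares. The split of all genes depended on the scaling, as 44.9% of the genes past 2-fold were higher with the deposited values and 30.2% once both libraries had been brought to the same sum.

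**Figure D1:**
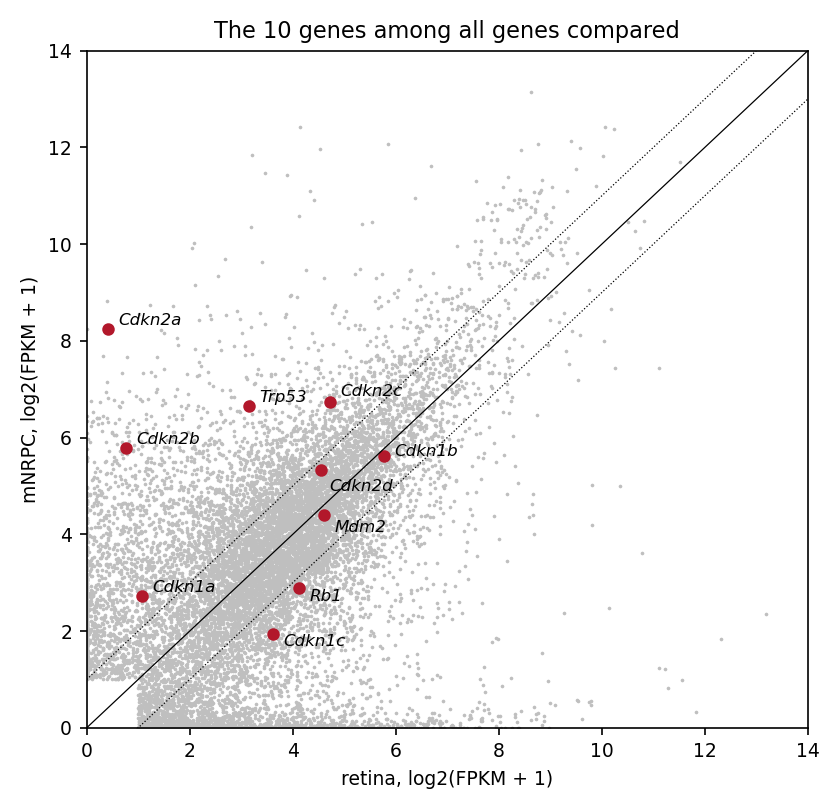
Each grey point is 1 of 13780 genes compared, with log2(FPKM + 1) in the retina library on the x axis and in the mNRPC library on the y axis. Red points are the 10 growth arrest genes, the solid line marks equal values and the dotted lines 2-fold, and Cdkn2a and Cdkn2b lie far to the upper left.

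By estimate, the mNRPC library held 6.61e+06 fragments and the retina library 4.93e+06. Cell type markers were checked next. Of the progenitor markers, Sox2 had 231 FPKM in mNRPCs against 18.5 in retina, Pax6 was at 123 and 101 FPKM, and Nes was at 9.42 and 0.841 FPKM. The 10 rod and cone markers summed to 10.3 FPKM in mNRPCs and 22713 in retina, with all 10 lower in mNRPCs. Lower were also 8 of 8 Müller glia and astrocyte markers (sums of 54.1 and 1980 FPKM) and 11 of 12 markers of inner retina neurons (10.7 and 680.3). Of all genes compared, 24.5% were at least 2-fold higher and 30% at least 2-fold lower. Of 14 markers of endothelial cells, pericytes, fibroblasts and macrophages, 11 were below 1 FPKM in mNRPCs and 9 in retina. Pdgfrb, which marks pericytes and fibroblasts, was at 4.49 FPKM in mNRPCs against 1.24 in retina. It was the only 1 of the 14 that was at least 2-fold higher. The 3 that were lower were the endothelial genes Kdr (0.0219 FPKM in mNRPCs against 29.5 in retina) and Cdh5 (listed at 0 against 1.15) and the pericyte gene Rgs5 (listed at 0 against 8.16). The fibroblast marker Lum was listed at 0 in both libraries. These markers moved with the libraries as the genes below did, and their part in the results was not tested.

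Of the 10 genes, the INK4 genes Cdkn2a and Cdkn2b had the largest log2 ratios. Cdkn2a was at 303 FPKM in mNRPCs and 0.333 FPKM in retina. Its log2 ratio was 7.83 with a counting standard error of 0.30. These levels came to an estimated 1792 and 1.47 fragments. The retina level was thus under 3 fragments and not detectable at this depth. Without the pseudocount, the ratio of the FPKM values was 911, with a 95% counting interval from 209.9 to 13231. With the retina level set at 3 fragments this ratio would be 446. Each ratio or fold printed with a counting interval leaves the pseudocount out, whereas the log2 ratios and the 2-fold calls include it. Cdkn2a was the most abundant of the 10 genes in mNRPCs, and in retina it had the lowest value, which could not be separated from that of Cdkn2b. Its level stood at percentile 98.0 of the genes compared in mNRPCs and at percentile 4.62 in retina.

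All of the Cdkn2a values were assigned to the p19ARF transcript. In the mNRPC library, NM_009877.2, which starts at the upstream first exon, was at 303 FPKM, and NM_001040654.1, the p16INK4a transcript, was listed at 0. In the retina library, the p19ARF row was at 0.333 FPKM and the p16INK4a row was again listed at 0. In GENCODE M21, the p19ARF transcript is 895 bp long and its first exon of 320 bp lies at chr4:89294334-89294653, while the first exon of the p16INK4a transcript (207 bp of 852) lies 12461 bp downstream at chr4:89281986-89282192. Both transcripts share 575 bp of exons 2 and 3, with coding parts of 507 and 504 bases in different frames. For a transcript of the p16INK4a length, 3 fragments would be 0.533 FPKM in the mNRPC library and 0.714 FPKM in the retina library. Fragments from the shared exons are assigned by estimation, so the 0 for p16INK4a rests on that step, and a listed 0 can also be a failed estimate.

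**Figure D2:**
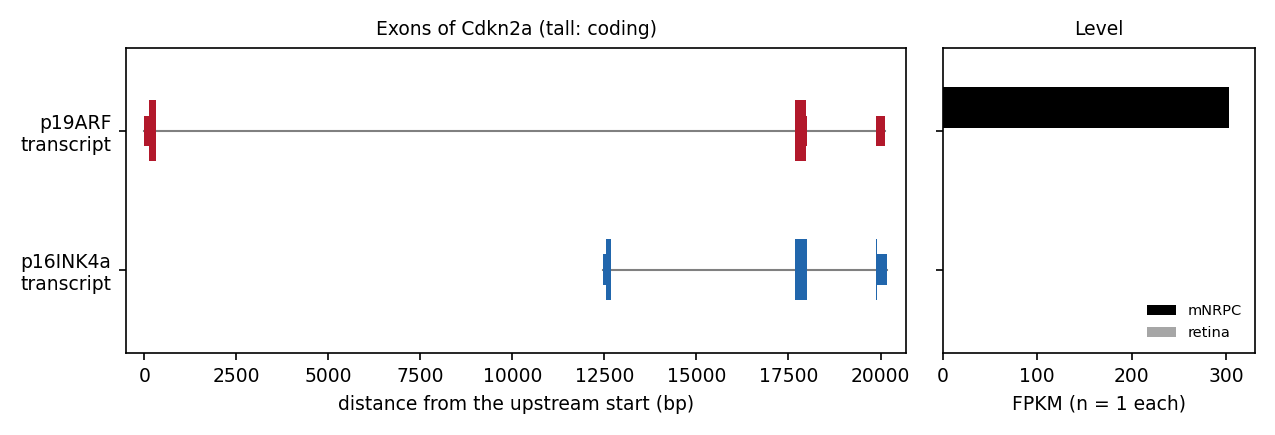
Left, exons of the 2 Cdkn2a transcripts by distance in bp from the upstream start (boxes, taller where coding), and right, the FPKM of each transcript row in the mNRPC (black) and retina (grey) library, 1 library each. The p19ARF transcript was at 303 FPKM in mNRPCs against 0.333 in retina, and the p16INK4a transcript was listed at 0 in both, so only 1 bar can be seen.

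Cdkn2b, the neighbouring gene that encodes the INK4 protein p15INK4b, was at 54.2 FPKM in mNRPCs and 0.689 FPKM in retina (log2 ratio 5.03). The retina level was an estimated 4.73 fragments, and the ratio of 78.6 has a counting interval from 32.7 to 253. On the other side of Cdkn2a lies Mtap, which encodes the methionine salvage enzyme methylthioadenosine phosphorylase. Mtap had 118 FPKM in mNRPCs against 2.93 in retina (log2 ratio 4.92). The next gene beyond Cdkn2b, Dmrta1, was at 0.188 and 0.0594 FPKM, an estimated 5.06 and 1.19 fragments, and Ifne and Ifna1 beyond Mtap were listed at 0 in both libraries. So the 3 neighbours Mtap, Cdkn2a and Cdkn2b were all higher in mNRPCs, and the nearest genes listed on either side of them were below 1 FPKM in both libraries.

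The other INK4 genes were measured well in both libraries. Cdkn2c, the gene of p18INK4c, was at 106 FPKM in mNRPCs against 25.3 in retina (log2 ratio 2.03), with both of its transcript rows higher in mNRPCs, NM_007671.3 at 64.8 and 19.5 FPKM and NM_001301368.1 at 41.1 and 5.79 FPKM. Cdkn2d, the gene of p19INK4d, was at 39.0 and 22.5 FPKM. Its log2 ratio of 0.77 was within 2-fold. The family summed to 502 FPKM in mNRPCs and 48.7 in retina. Cdkn2a made up 60.3% of the sum in mNRPCs and 0.683% in retina, where Cdkn2c (51.8%) and Cdkn2d (46.1%) made up nearly all of it. Without Cdkn2a, whose values were assigned to the p19ARF transcript, the sums were 199 and 48.4 FPKM.

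**Figure D3:**
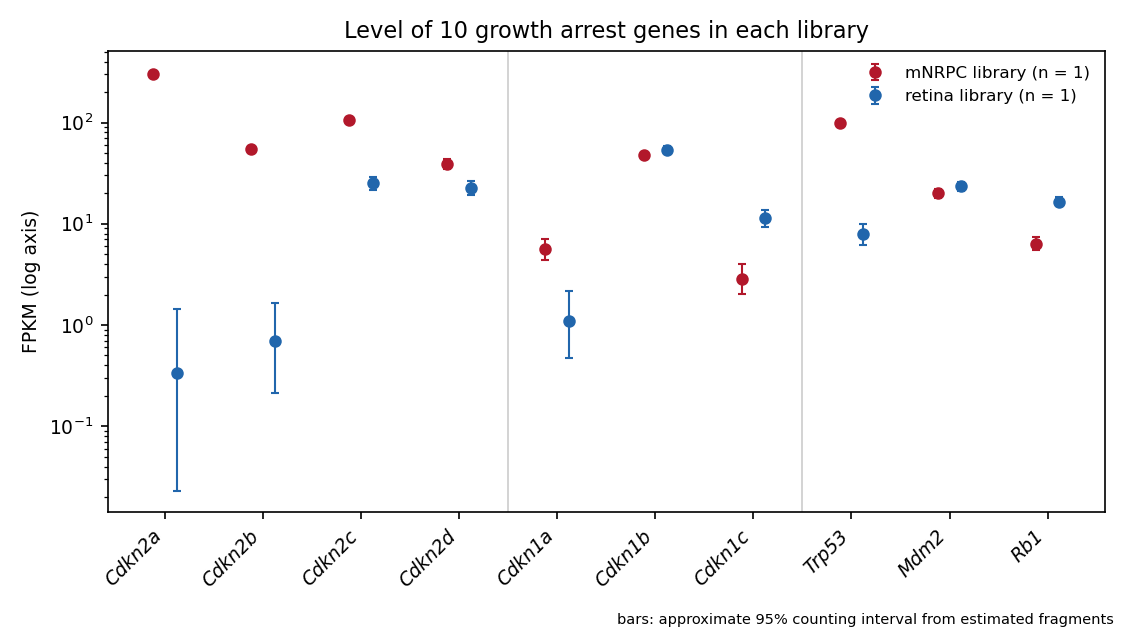
FPKM of the 10 genes (log axis) in the mNRPC library (red) and the retina library (blue), 1 library each, with approximate 95% counting intervals from estimated fragments. Vertical lines part the INK4, CIP/KIP and p53 and RB genes, and Cdkn2a runs from 303 FPKM in mNRPCs to 0.333 in retina while Cdkn1b and Mdm2 lie close together.

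The CIP/KIP genes went in 3 ways. Cdkn1a, the gene of the p53 target p21, was at 5.58 FPKM in mNRPCs against 1.10 in retina (log2 ratio 1.65), on an estimated 70.1 and 8.02 fragments. In mNRPCs nearly all of it was on NM_007669.4, at 5.52 FPKM, against 0.621 FPKM in retina. The other row, NM_001111099.1, was under 3 estimated fragments in both libraries. Although Cdkn1a was 5.09-fold higher in mNRPCs (95% counting interval 2.45 to 12.2), its level there stood at percentile 40.5 of the genes compared, the next to lowest of the 10 genes.

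Cdkn1b was at 48.1 FPKM in mNRPCs against 53.8 in retina. Its log2 ratio of −0.16 was close to the median of all genes, −0.12. Among the 10 genes Cdkn1b was the most abundant in retina and held 85.1% of the CIP/KIP sum in mNRPCs and 81.3% in retina. Cdkn1c, an imprinted gene, was at 2.86 FPKM in mNRPCs against 11.3 in retina (log2 ratio −1.67), on an estimated 35.8 and 106 fragments. Of its 6 transcript rows, XM_006508469.2 (1.12 and 6.70 FPKM) and NM_009876.4 (0.453 and 3.58 FPKM) carried most of the retina signal and were lower in mNRPCs. The CIP/KIP sum was 56.6 FPKM in mNRPCs and 66.2 in retina.

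Of the p53 and RB genes, Trp53, which encodes p53, was at 99.2 FPKM in mNRPCs against 7.84 in retina, with a log2 ratio of 3.50 and a ratio of 12.7 (95% counting interval 9.93 to 16.4). The main row NM_011640.3 was at 83.5 and 3.94 FPKM and NM_001127233.1 at 13.01 and 0.767 FPKM. A predicted row, XM_006533157.2, was at 2.65 and 3.13 FPKM and thus held 39.9% of the retina sum, and with curated rows only the log2 ratio was 4.09. Mdm2, the ubiquitin ligase gene that p53 induces, was at 20.03 FPKM in mNRPCs against 23.4 in retina. Its log2 ratio of −0.21 was within 2-fold and 0.0924 below the median of all genes. Rb1 was at 6.37 FPKM in mNRPCs against 16.5 in retina (log2 ratio −1.25). Of the retina value, 2.68 FPKM were on a noncoding row that was near 0 in mNRPCs, and on the coding row NM_009029.2 the values were 6.37 and 13.8 FPKM, a log2 ratio of −1.01. Lpar6 lies within Rb1 and was higher in mNRPCs, and reads of overlapping genes could be told apart only by strand, which is not stated.

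The order of the levels differed between the libraries. In mNRPCs it was Cdkn2a, Cdkn2c, Trp53, Cdkn2b, Cdkn1b, Cdkn2d, Mdm2, Rb1, Cdkn1a and Cdkn1c. By counting error alone, Cdkn2c could not be separated from Trp53 (ratio 1.07, interval 0.984 to 1.16) nor Rb1 from Cdkn1a (1.14, 0.866 to 1.52). In retina it was Cdkn1b, Cdkn2c, Mdm2, Cdkn2d, Rb1, Cdkn1c, Trp53, Cdkn1a, Cdkn2b and Cdkn2a. Here Cdkn2c could not be separated from Mdm2 (1.08, 0.898 to 1.30) nor Mdm2 from Cdkn2d (1.04, 0.860 to 1.26), nor could Cdkn1a from Cdkn2b or Cdkn2b from Cdkn2a.

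The sign of each log2 ratio was the same with the deposited values, when both libraries were set to the same sum, and with trimmed mean and upper quartile scaling. The median of all genes moved from −0.12 to −0.68, −0.24 and −0.17 under the latter 3. Relative to that median Cdkn2a lay between 7.95 and 8.80, Cdkn2b between 5.15 and 5.78, Trp53 between 3.62 and 3.76, Cdkn2c between 2.14 and 2.22 and Cdkn1a between 1.77 and 2.19. Cdkn2d lay between 0.888 and 0.963, Cdkn1c between −1.58 and −1.53 and Rb1 between −1.13 and −1.10. Mdm2 lay between −0.0933 and −0.0331. Cdkn1b lay between −0.0396 and 0.0182, so its place relative to other genes changed sign with the scaling.

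**Figure D4:**
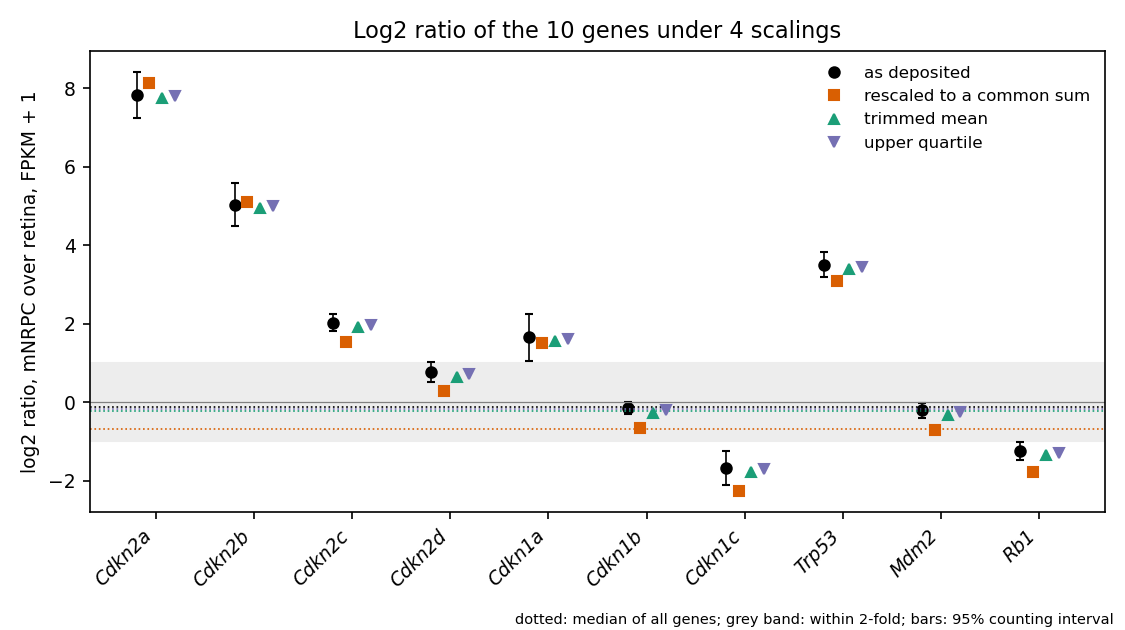
Log2 ratio of (mNRPC FPKM + 1)/(retina FPKM + 1) for the 10 genes with the deposited values (black, with 95% counting intervals) and under 3 other scalings. Dotted lines are the medians of all genes in the matching colours and the grey band marks ratios within 2-fold, inside which Cdkn2d, Cdkn1b and Mdm2 stayed.

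The genes around p53 were compared from lists of the pathway. Of 15 p53 family members, kinases and regulators, 3 were at least 2-fold higher in mNRPCs and 2 were lower, which is 23.1% and 15.4% of those compared, beside 24.5% and 30% of all genes. The median log2 ratio of the 15 was −0.09, against −0.12 for all genes of at least 1 FPKM. Over the list genes that also reached 1 FPKM it was −0.33, below that of all genes. Once both libraries had the same sum, 6 were lower and the median of the 15 was −0.54, against −0.68 for all genes. Of all genes, 6349 were then lower, against 4130 with the deposited values. Chek2, a checkpoint kinase that phosphorylates p53, was at 13.4 FPKM in mNRPCs against 0.0243 in retina, where it was under 3 estimated fragments, and Hdac1 was at 71.2 and 24.4 FPKM. Ppm1d, the gene of a phosphatase that acts on p53, was at 6.52 and 25.5 FPKM (log2 ratio −1.82), and Mdm4, the gene of the MDM2 partner MDMX, was at 11.5 and 30.7 FPKM (−1.34). Trp73 was listed at 0 in both libraries.

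Of 30 p53 target genes, which include Cdkn1a and Mdm2, 12 were at least 2-fold higher, 4 were lower and 14 lay between, which is 42.9% higher and 14.3% lower of those compared, beside 24.5% and 30% of all genes. The higher count was 8 at the same sum and 4 with a pseudocount of 5. Of all genes, 2751 and 2368 were higher under these settings, against 3371 in the main comparison. The list had a median log2 ratio of 0.23 (−0.03 once both libraries had the same sum, against −0.68 for all genes). Restricted to targets that reached 1 FPKM, the list median was 0.48 with the deposited values, against −0.12 for all genes. Among the higher genes were Phlda3, an inhibitor of AKT (58.6 and 3.92 FPKM, log2 ratio 3.60), the kinase genes Plk3 (17.8 and 2.15 FPKM, 2.58) and Plk2 (47.9 and 10.7 FPKM, 2.06), and Perp (10.4 and 2.97 FPKM, 1.52). The apoptosis gene Bax was at 94.1 and 39.9 FPKM (1.22). The lower genes were the antiproliferative gene Btg2 (6.12 and 41.8 FPKM, −2.59), Tigar (3.42 and 13.2 FPKM, −1.68), the DNA repair gene Ddb2 (5.72 and 15.2 FPKM, −1.27) and Sesn1 (20.8 and 48.0 FPKM, −1.17). Ccng1, another p53 target, was at 38.3 and 38.8 FPKM. The targets lay on both sides, and Trp53 itself was 12.7-fold higher.

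Of 23 regulators and partners of the Ink4a/Arf products, 6 were higher and 6 were lower, 26.1% each way beside 24.5% and 30% of all genes. At the same sum 5 were higher and 10 were lower, while of all genes 2751 were higher and 6349 were lower. The median log2 ratio was 0.01 (−0.49 at the same sum, −0.11 with trimmed mean and −0.04 with upper quartile scaling). For all genes the median was −0.12 with the deposited values and −0.68, −0.24 and −0.17 under these scalings. Polycomb proteins are known to silence this locus. Their genes were mixed, with Ezh2 at 30.1 FPKM in mNRPCs against 6.56 in retina (log2 ratio 2.04), Bmi1 at 41.4 and 56.3 FPKM (−0.43), Cbx7 at 4.75 and 29.0 FPKM (−2.38) and Cbx8 at 5.87 and 18.2 FPKM (−1.49). Twist1 and Tbx2 encode repressors of the locus. Twist1 was at 83.7 and 0.185 FPKM, under 3 estimated fragments in retina (6.16), and Tbx2 at 4.79 and 23.0 FPKM (−2.05). Myc, which can induce p19ARF, was at 17.3 and 0.257 FPKM (3.86), also under 3 fragments in retina. Npm1, the gene of the nucleolar partner of p19ARF, was at 995 and 145 FPKM (2.77), and it has near-identical copies that make its values uncertain. Ubtf, a factor for ribosomal RNA transcription, was at 10.6 and 26.5 FPKM (−1.25).

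Of 12 genes for the turnover and transcription of p27 and p57, 4 were higher and 1 was lower. This is 36.4% and 9.09% of those compared, beside 24.5% and 30% of all genes. The median log2 ratio was 0.36, against −0.12 for all genes. At the same sum it was −0.02, against −0.68 for all genes. Skp2, which marks p27 for degradation, was at 16.6 FPKM in mNRPCs against 4.37 in retina (log2 ratio 1.72), and its cofactor Cks1b at 265 and 2.36 FPKM (6.31). Dtl, a substrate receptor for p21 degradation, was at 10.5 and 0.102 FPKM (3.39), under 3 fragments in retina. Foxo1 was at 12.5 and 5.66 FPKM (1.02). The lower gene Rnf123, a subunit of another p27 ubiquitin ligase, was at 5.24 and 62.0 FPKM (−3.34). Cdkn1b RNA was within 2-fold between the libraries, as given above.

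Downstream of the inhibitors, 13 of 26 genes of the RB family, G1 cyclins, kinases and E2Fs were higher in mNRPCs and 3 were lower, which is 52% and 12% of those compared, beside 24.5% and 30% of all genes. With a pseudocount of 5 these were 8 and 1, beside 2368 higher and 2153 lower of all genes. Of the RB family, Rbl1 (p107) was at 15.2 and 3.54 FPKM (log2 ratio 1.84), whereas Rbl2 (p130) was at 7.82 and 18.6 FPKM (−1.15), in the same direction as Rb1. The third lower gene was Lin52 (6.00 and 21.2 FPKM, −1.66), a subunit of the DREAM complex. The INK4 target Cdk4 was at 417 and 26.8 FPKM (3.91), Ccnd1 at 371 and 4.26 FPKM (6.14), Cdk2 at 40.0 and 1.33 FPKM (4.13) and E2f1 at 44.7 and 1.25 FPKM (4.34). Cdk6 was listed at 0 in both libraries, which can be a failed estimate.

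Genes of DNA replication and division were looked at next. Of 16 E2F targets of S phase, 14 were at least 2-fold higher and 0 lower (median log2 ratio 2.35, beside 24.5% and 30% of all genes higher and lower), among them Rrm2 (57.7 and 0.512 FPKM), Tk1 (44.8 and 0.448 FPKM), Mcm6 (43.9 and 2.58 FPKM) and Mcm3 (29.0 and 1.52 FPKM). All 12 mitosis genes were higher (median 5.08), where 24.5% of all genes were. Among them were Cdk1 (84.4 and 0.150 FPKM), Top2a (79.7 and 0.0933 FPKM), Birc5 (69.4 and 0.235 FPKM) and Ccnb2 (67.9 and 0.405 FPKM). Of these, Top2a and Birc5 were under 3 estimated fragments in retina. The proliferation marker Mki67 was at 35.6 and 0.0986 FPKM. Of 14 senescence-associated genes, 8 were higher and 2 were lower (median 1.27), which is 66.7% and 16.7% of those compared, beside 24.5% and 30% of all genes. With a pseudocount of 5 these were 5 and 1, beside 2368 higher and 2153 lower of all genes. The list median was then 0.50, and with 0.1 it was 2.98, against −0.08 and −0.13 for all genes. The largest ratios were those of the chemokine gene Ccl2 (375 and 1.02 FPKM), Igfbp3 (298 and 1.71 FPKM), and Hmga2 and Hmga1, which encode chromatin proteins also known from growing fetal cells (77.7 and 0.235 FPKM, and 701 and 76.2 FPKM). Igfbp7 was lower (1.86 and 11.1 FPKM), and Lmnb1, a lamin gene whose loss marks senescent cells, was at 37.4 and 21.8 FPKM (log2 ratio 0.75).

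**Figure D5:**
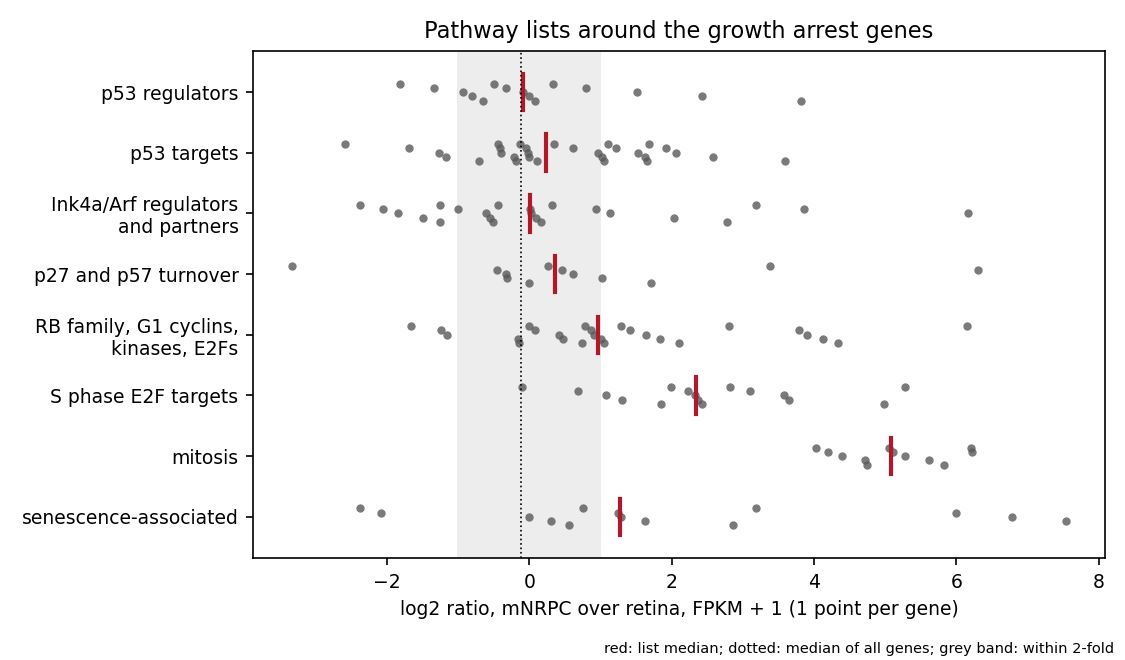
Log2 ratio of (mNRPC FPKM + 1)/(retina FPKM + 1) of each gene (grey points) on 8 pathway lists, with the list median in red, the median of all genes dotted and the 2-fold band in grey. The p53 regulators and the Ink4a/Arf regulators have medians near 0, while all 12 mitosis genes lie to the right of the band.

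The genes closest to Cdkn2a in both libraries, by distance in log2(FPKM + 1), were Ccl5 (0.41), Ube2c (0.57), Col3a1 (0.57), Ccl2 (0.67) and Spon2 (0.68). They were at 302, 205, 450, 375 and 204 FPKM in mNRPCs, and in retina Ccl5 was listed at 0 while the other 4 were between 0.246 and 1.02 FPKM. This likeness is over 2 libraries only.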

How the data were processed

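RNA was measured in 2 samples, 1 library per group, with groups taken from the labels. The deposited values were FPKM per RefSeq transcript, which the authors made, per the study's methods, by aligning reads with Bowtie 2 and estimating FPKM with eXpress. The submitters' processing notes instead name TopHat2 2.0.10 and the build GRCm38.p3, and the sources differ in the sequencer, so the steps are uncertain. Reads shared between transcripts are divided by estimation, and single transcripts are less certain than gene sums.

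Accessions were matched without version to RefSeq (GRCm38.p6) and then to GENCODE M21, which named 74283 of 106754 rows (69.6%), and rows of a gene were summed. Patch releases share the chromosome coordinates of GRCm38. Values below 1e-06 were read as 0. A pseudocount of 1 was added, as in the study, and higher or lower means a log2 ratio of at least 1 in size. Unless stated, list medians cover every listed gene, while the median of all genes covers those of at least 1 FPKM. Depth was estimated from the first peak of low FPKM multiplied by length, over 6228 rows of at least 1500 bp. Levels at or under 3 estimated fragments were treated as not detectable. Fragment numbers are estimates, and 95% intervals (Poisson, and conditional binomial for ratios) cover counting error only. Python 3.11.15 with pandas 2.3.3 and scipy 1.17.1 was used. The depth estimate and the 2-fold calls for abundant rows were tested on simulated data. That test did not cover the intervals, the scalings or the division of reads between transcripts.

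The members and lists were chosen with earlier results of these data known. Named genes are the members, up to 4 list genes per direction past 2-fold that reached 10 FPKM in either library, genes of direct role, and the 5 genes closest to Cdkn2a. Alternatives were pseudocounts of 0.1 and 5, filters, thresholds, 3 scalings (a common sum of 1e+06, trimmed mean, upper quartile) and other choices of rows. One marker of the progenitor list is not reported here.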

Additional observations from a re-analysis of the deposited data

How the results depend on the processing

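Over the 10 genes and the alternatives for pseudocount, scaling and rows, 0 of 78 log2 ratios changed sign, 54 lay within counting error of the reported value and 24 moved. The ratio of Cdkn2a moved with the pseudocount, to 9.45 with 0.1 and 5.85 with 5, since its retina level is near 0, and lay between 7.76 and 8.12 otherwise. The number of members at least 2-fold lower was 1 with a pseudocount of 5, where Rb1 was at −0.92. It was also 1 with versioned accessions, where Rb1 had no matching row. With a threshold of 2 on the log2 ratio, which is 4-fold, 0 members were lower. Cdkn1a was within 2-fold with a pseudocount of 5 (0.80) and had no matching row with versioned accessions. Trp53 was at 4.09 with curated rows only. Of all genes, 1547 were higher and 1942 lower at the 4-fold threshold. At 2-fold, 2153 were lower with a pseudocount of 5 and 6349 after rescaling to a common sum, which lowers mNRPC values relative to retina by construction. Depth limits Cdkn2a, Cdkn2b and Cdkn1a, which had fewer than 10 estimated fragments in retina, and no value has a replicate error. No paired analysis was possible because there was 1 library per group.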
